A study of Mus musculus with 20 samples.

Results

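The nuclear genes for the subunits of mitochondrial oxidative phosphorylation were followed in fetal mouse lung that kept or lacked the glucocorticoid receptor (GR, gene Nr3c1) in mesenchymal cells. Members were taken by gene symbol: the Nduf genes of complex I, the 4 succinate dehydrogenase genes of complex II, the Uqcr genes of complex III, Cox4 to Cox8 of complex IV and the Atp5 genes of complex V, with 1 probe set per gene, the one of highest mean over the arrays. The array held 84 such genes, and 79 of them lay above a log2 value of 4 in at least 5 of the 20 arrays, among 8068 genes that passed the same filter. These 79 comprised 33 genes of complex I, 4 of complex II, 8 of complex III, 12 of complex IV and 17 of complex V, together with 5 genes that share the Nduf symbol but encode assembly factors of complex I (Ndufaf1, Ndufaf3, Ndufaf4, Ndufaf5 and Ndufaf7). The 5 genes left out as dim were Cox4i2, Cox6a2, Cox8b, Cox8c and Ndufb1. Genes measured only by probe sets that name several genes, and the genes of the mitochondrial genome itself, were not analysed here.

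RNA came from the left lung lobe of C57Bl6 embryos, with 1 animal per array and 5 animals in each of 4 groups. Controls carried the floxed GR gene ("GR flox"). Mutants ("GRCol1-Cre") had in addition Cre recombinase from a bacterial artificial chromosome with the Col1a2 (collagen) locus, and each genotype was sampled at E16.5 and at E18.5. Deletion depends on use of this collagen locus, and RNA of the whole lobe includes cell types that keep the receptor.

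Oxidative phosphorylation takes electrons from NADH at complex I and from succinate at complex II, passes them through complexes III and IV to oxygen, and uses the proton gradient that complexes I, III and IV build to make ATP at complex V. Most subunits are encoded in the nucleus and imported into the mitochondrion, where assembly factors that are not part of the finished enzyme put them together. In fetal lung, glucocorticoids acting through GR are known for their part in preparing the tissue for air breathing.

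The arrays' medians of log2 values lay between 5.70 and 5.87, and arrays of 1 group correlated with Pearson's r between 0.989 and 0.998. Nr3c1, which checks the labels, averaged 8.78 ± 0.22 on the log2 scale (SD, n = 5) in controls against 7.07 ± 0.45 in mutants at E16.5, and 9.42 ± 0.22 against 7.80 ± 0.19 at E18.5. The groups did not overlap at either stage. Replicate 3 of the E18.5 controls stood apart from its group: the summed level of the 8 erythroid markers on the array was 13.3 there (log2), against 11.8 to 12.3 in the other E18.5 controls. That of the 12 skeletal muscle markers, of which 2 passed the filter, was 11.4 against 7.81 to 9.33. This array was also the lowest E18.5 control for macrophage markers (12.8, others 13.6 to 13.9) and for alveolar type I markers (15.3, others 15.6 to 15.7). The same held for alveolar type II (16.3, others 16.6 to 16.7) and endothelial markers (13.37, others 13.41 to 13.60), and it was highest for mesenchyme (15.9, others 15.6 to 15.7). The counts of called members, and members that this array sets apart, are also given without it. Embryos of both sexes were present, and the log2 value of Xist, which marks female cells, lay above 10 in 1 of the 5 E16.5 controls, 5 E16.5 mutants, 3 E18.5 controls and 2 E18.5 mutants.

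The members were among the brighter genes of the array. Of the 79, 71 had a mean log2 value above 10, and group means ran from 4.34 for Cox7a1 in E16.5 mutants to 14.0 for Cox6a1 in E16.5 controls. Animals of a group differed little. The median SD of a member within a group was 0.11 on the log2 scale, and the standard error (SE) of a member's difference between groups lay between 0.05 and 0.26, with a median of 0.08.

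Promoters were compared for motifs of factors known to act at nuclear genes for the respiratory chain: NRF1 (GCGCATGC), GABP (CCGGAAG), YY1 (AAGATGGC), the oestrogen-related receptors (CAAGGTCA) and SP1 (GGGCGG), with the core of the glucocorticoid receptor element (ACANNNTGT) beside them. The window ran from 250 bases before to 50 bases after the first listed start of a gene in RefSeq (GRCm38.p6), both strands were searched, and 68 of the 79 members and 6577 of the 8068 genes tested had a window. The NRF1 letters were present in 11 of 68 members (16.2%), against 6.14% of all genes tested. The corresponding shares were 25.0% against 19.6% for GABP, 11.8% against 5.25% for YY1, 5.88% against 0.958% for the oestrogen-related receptors, and 45.6% against 67.4% for SP1. The glucocorticoid receptor core was in 0 of 68 members and in 3.89% of all genes, which says only that these letters are not in these windows. Matches of different motifs shared bases in 1 member, and 19 of the 68 held none of the 6 motifs. A match is a string of letters and not a measured binding site.

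Shown here are the windows of 4 members that were higher in E18.5 mutants (Ndufaf5, Atp5g2, Ndufaf1 and Ndufa5) and of the complex IV isoform genes Cox6b2 and Cox7a1, which rose with stage. Capitals mark the motif matches on either strand. Both Ndufaf5 (chr2:140170396-140170695, plus strand) and Atp5g2 (chr15:102670998-102671297, minus strand) hold a run in which the NRF1 letters match on both strands, and Atp5g2 holds the SP1 letters too. Ndufaf1 (chr2:119662785-119663084, minus strand) holds the SP1 and GABP letters, and Ndufa5 (chr6:24527477-24527776, minus strand, the first of 2 listed starts) holds the SP1 letters alone. Cox6b2 (chr7:4753045-4753344, minus strand) also holds the SP1 letters alone, and Cox7a1 (chr7:30183921-30184220, plus strand) holds none of the 6 motifs.
Ndufaf5: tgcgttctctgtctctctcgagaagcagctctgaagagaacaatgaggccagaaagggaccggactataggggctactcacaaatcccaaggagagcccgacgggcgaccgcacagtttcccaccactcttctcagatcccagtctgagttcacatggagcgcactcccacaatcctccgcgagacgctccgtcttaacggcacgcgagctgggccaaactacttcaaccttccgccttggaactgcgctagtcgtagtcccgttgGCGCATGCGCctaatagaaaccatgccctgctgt
Atp5g2: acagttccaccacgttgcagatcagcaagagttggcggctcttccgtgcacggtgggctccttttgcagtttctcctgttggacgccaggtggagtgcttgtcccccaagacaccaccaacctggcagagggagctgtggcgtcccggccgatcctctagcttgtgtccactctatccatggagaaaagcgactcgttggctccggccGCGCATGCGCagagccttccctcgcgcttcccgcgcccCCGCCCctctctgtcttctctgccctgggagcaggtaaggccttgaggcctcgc
Ndufaf1: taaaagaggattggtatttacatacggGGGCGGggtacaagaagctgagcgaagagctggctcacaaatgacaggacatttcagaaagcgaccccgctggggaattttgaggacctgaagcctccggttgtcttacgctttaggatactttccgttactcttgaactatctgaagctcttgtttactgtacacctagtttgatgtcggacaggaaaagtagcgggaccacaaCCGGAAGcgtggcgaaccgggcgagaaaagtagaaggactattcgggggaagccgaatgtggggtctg
Ndufa5: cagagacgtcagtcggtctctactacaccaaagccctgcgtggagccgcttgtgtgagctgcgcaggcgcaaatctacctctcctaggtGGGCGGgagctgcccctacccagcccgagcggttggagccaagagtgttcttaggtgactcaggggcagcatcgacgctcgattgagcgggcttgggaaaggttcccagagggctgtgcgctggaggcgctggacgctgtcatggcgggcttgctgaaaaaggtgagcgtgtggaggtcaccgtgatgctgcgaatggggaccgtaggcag
Cox6b2: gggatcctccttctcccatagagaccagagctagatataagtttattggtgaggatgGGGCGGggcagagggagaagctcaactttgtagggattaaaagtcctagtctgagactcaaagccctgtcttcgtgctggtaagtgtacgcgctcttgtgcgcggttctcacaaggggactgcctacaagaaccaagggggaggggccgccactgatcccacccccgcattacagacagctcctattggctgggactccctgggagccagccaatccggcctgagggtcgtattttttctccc
Cox7a1: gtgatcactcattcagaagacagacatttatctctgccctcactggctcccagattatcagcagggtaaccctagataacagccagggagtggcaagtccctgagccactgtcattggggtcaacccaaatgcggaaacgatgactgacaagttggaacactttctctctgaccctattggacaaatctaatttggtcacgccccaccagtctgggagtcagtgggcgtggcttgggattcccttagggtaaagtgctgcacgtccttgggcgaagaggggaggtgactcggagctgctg

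The comparison of E18.5 with E16.5 in controls asked how the members change over the last days before birth with GR intact. More members fell than rose: 34 of the 79 were lower and 7 higher at E18.5. Here and below, a member is called where limma's two-sided p, adjusted by Benjamini-Hochberg across the 8068 genes, lies under 0.05. In all, 51.9% of the members were called, against 70.9% of all genes tested (35.3% higher, 35.5% lower). Without the filter on dim genes the order of these shares turned, with 53.6% of the members and 48.1% of all genes called. Without replicate 3 of the E18.5 controls 47 members were called (5 higher, 42 lower, 59.5%, against 71.9% of all genes), with a median of -0.19. With all arrays, the median difference was -0.13 over the members and -0.01 over all genes. Among genes with a mean above 10, 47.9% of the 71 members and 71.3% of 1854 genes were called. The plot of every member in every animal shows these falls as blue blocks in 4 of the E18.5 controls. In replicate 3 of that group 52 of the 79 members lay above their own mean over all arrays, against 8 to 26 in the other 4.

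**Figure D1:**
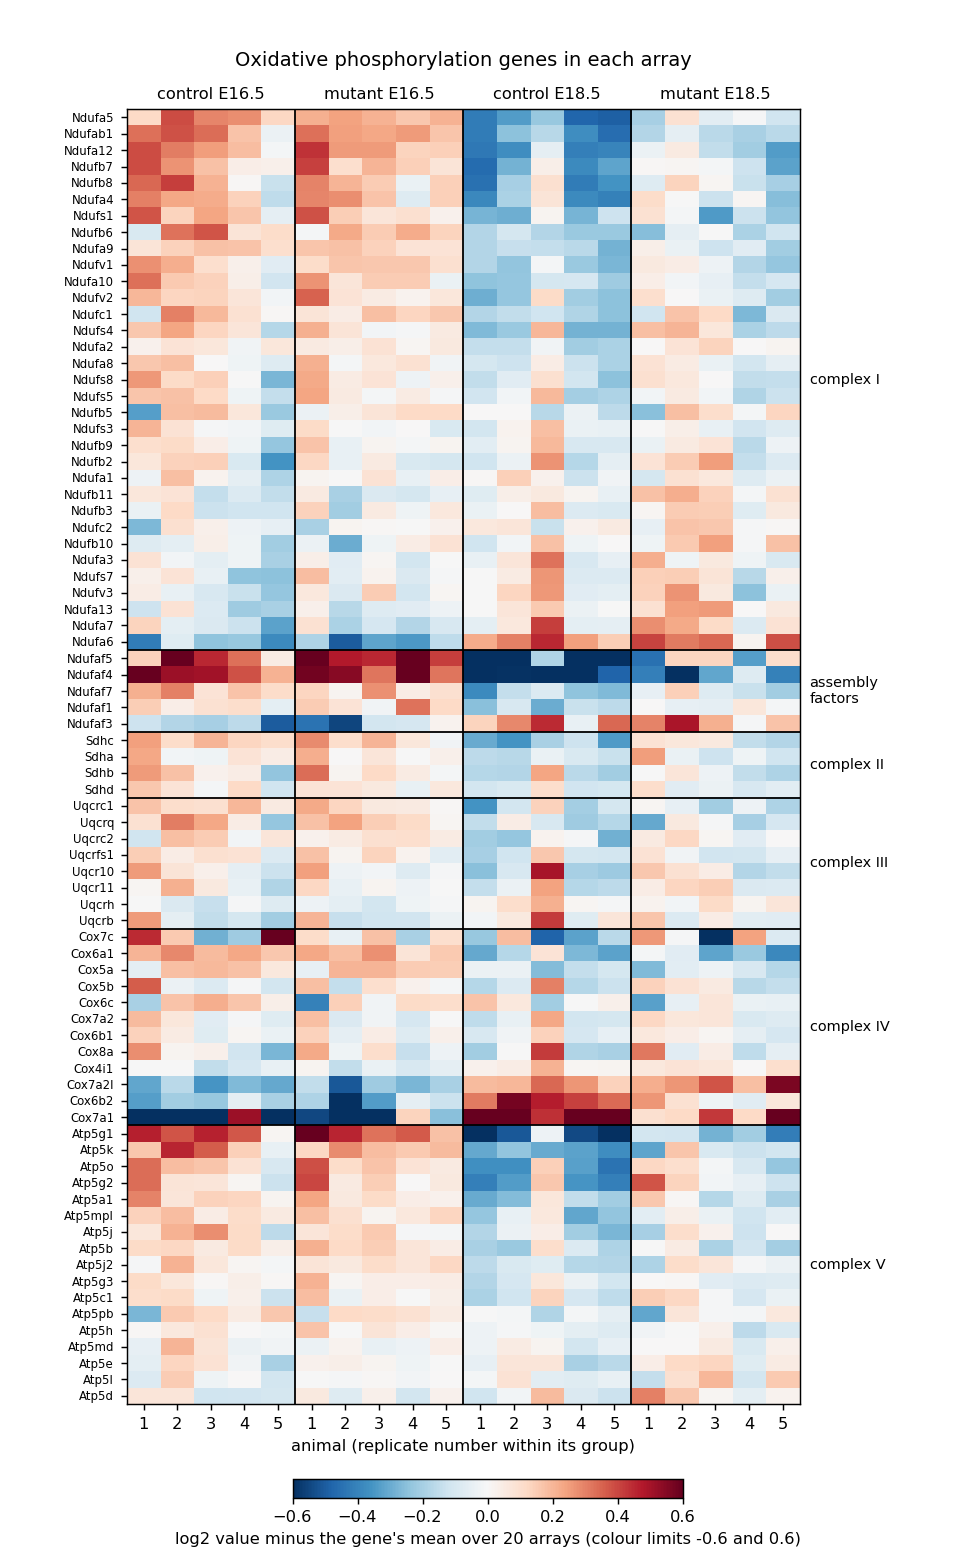
Log2 value of each of the 79 members (rows, by complex and then by their change with stage in controls) minus the gene's mean over 20 arrays, in each animal (columns, replicate 1 to 5 of 4 groups); colour runs from -0.6 (blue) to 0.6 (red), and larger values take the end colours. Many members of complexes I, II and V are bluer in the other E18.5 controls than in E16.5 animals, in replicate 3 of the E18.5 controls 52 of 79 members lie above their mean (red), and Ndufa6, Cox7a2l, Cox6b2 and Cox7a1 run the other way.

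In complex I, 15 of 33 subunit genes fell with stage in controls and 1 rose (45.5% and 3.0%), against 35.5% and 35.3% of all genes tested. Of the 6 core genes for the flavin and iron-sulphur proteins that carry the electrons, Ndufs1, Ndufv1 and Ndufv2 fell, by 0.36, 0.30 and 0.27 on the log2 scale, and Ndufs3, Ndufs7 and Ndufs8 were not called (differences from -0.14 to 0.11). Of the 27 accessory subunit genes, 12 fell. Ndufa5 had log2 values of 12.01, 12.28, 12.18, 12.17 and 12.01 in the E16.5 controls and of 11.47, 11.56, 11.66, 11.41 and 11.40 in the E18.5 controls. Every E18.5 value lay below every E16.5 value, and the fall came to 0.63 (SE 0.07, adjusted p = 1.8e-07). Ndufab1, the acyl carrier protein of the mitochondrion, fell by 0.57 (SE 0.08) and Ndufa12 by 0.56 (SE 0.09), also without overlap between the groups. With the probe set of largest variance in place of the brightest one, the Ndufab1 difference was -0.14 and was not called. Its SE was 0.31 there, too wide to tell the fall of 0.57 from no change.

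Ndufa6, which contacts the acyl carrier protein within complex I, was the 1 subunit gene of the complex that rose. Its log2 values were 10.31, 10.66, 10.49, 10.50 and 10.35 in E16.5 controls and 10.95, 11.03, 11.18, 10.98 and 10.88 in E18.5 controls, a rise of 0.54 (SE 0.09, adjusted p = 2.29e-05) between groups that did not overlap. Of the X-linked members, neither Ndufa1 (0.02, SE 0.07) nor Ndufb11 (0.04, SE 0.06) was called in controls. Ndufa4, grouped here by its symbol and now known as a subunit of complex IV, fell by 0.41 (SE 0.11, adjusted p = 0.0022).

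All 5 assembly factors of complex I were called with stage in controls, and 4 of them fell. Of all genes tested, 70.9% were called and 35.5% fell. Ndufaf5, which modifies an arginine of the core subunit Ndufs7, had log2 values of 7.03, 7.57, 7.34, 7.22 and 6.94 at E16.5 and of 5.89, 6.14, 6.71, 5.89 and 5.79 at E18.5. The fall of 1.14 (SE 0.17, adjusted p = 6.07e-06) to 0.455 of the E16.5 level was the largest among the 79 members, and the highest E18.5 value was that of replicate 3. Ndufaf4 fell by 1.10 (SE 0.12), Ndufaf7 by 0.40 (SE 0.07) and Ndufaf1 by 0.25 (SE 0.06). Ndufaf3 rose by 0.46 (SE 0.12, adjusted p = 0.00214).

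In complex II, Sdhc, a membrane anchor of succinate dehydrogenase, fell by 0.42 (SE 0.07) and the flavoprotein gene Sdha by 0.18 (SE 0.07). The iron-sulphur gene Sdhb (-0.15, SE 0.10) and the other anchor Sdhd (-0.11, SE 0.06) were not called. Without replicate 3 of the E18.5 controls the Sdhb difference was -0.23 and was called (adjusted p = 0.0275). In complex III, the core protein genes Uqcrc1 and Uqcrc2 fell by 0.25 and 0.20 (SE 0.08 and 0.07) and the hinge protein gene Uqcrh rose by 0.13 (SE 0.05, adjusted p = 0.0369). The Uqcrh rise was 0.06 with arrays centred on their medians (adjusted p = 0.387) and 0.09 without replicate 3 of the E18.5 controls (adjusted p = 0.106). Its call was also lost with the 2 groups alone, the replicate block, the probe set of largest variance or the cardiac covariate. The Uqcrc2 call was lost with the 2 groups alone, quantile normalization, the probe set of largest variance or either marker covariate (-0.20 to -0.11), and the Uqcrc1 difference was -0.06 and not called with the erythroid covariate. The other 5 genes of complex III were not called.

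In complex IV, 4 of 12 genes rose and 2 fell (33.3% and 16.7%), against 35.3% and 35.5% of all genes tested. Where 1 subunit has several isoform genes, some were called and others not; the difference between isoforms was not tested. Cox7a1, the isoform of heart and skeletal muscle, had log2 values of 4.21, 4.25, 3.95, 5.38 and 3.92 in E16.5 controls and of 5.60, 6.05, 5.30, 5.77 and 5.49 in E18.5 controls. Only replicate 4 at E16.5 reached into the E18.5 range, and the rise of 1.30 (SE 0.26, adjusted p = 0.000195), or 2.47-fold, was the largest among the members. Its counterpart Cox7a2, of most other tissues, was at 13.51 ± 0.11 and 13.45 ± 0.15 (-0.06, SE 0.08, not called). The related Cox7a2l, a protein of the supercomplexes of III and IV, rose by 0.51 (SE 0.08, adjusted p = 1.2e-05).

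Cox6b2, the isoform known from testis, rose by 0.62 (SE 0.10, adjusted p = 2.48e-05), from 8.98 ± 0.10 to 9.61 ± 0.11, while Cox6b1 was at 13.74 ± 0.08 and 13.70 ± 0.10. Cox4i1 rose by 0.12 (SE 0.05, adjusted p = 0.0476). The Cox4i1 rise was 0.05 with median centring (adjusted p = 0.468) and 0.08 without replicate 3 of the E18.5 controls (adjusted p = 0.137). Its call was also lost with the 2 groups alone, the replicate block, the probe set of largest variance or the cardiac covariate. The counterpart of Cox4i1, Cox4i2, an isoform of adult lung, was dim in all groups (group means 3.06 to 3.13). Cox6a1 fell by 0.41 (SE 0.08, adjusted p = 0.000166) and the muscle form Cox6a2 was dim (2.31 to 2.62). Cox5a fell by 0.23 (SE 0.07), and Cox5b (-0.08, SE 0.10) and Cox8a (-0.02, SE 0.12) were not called. Cox8b, a form of heart, muscle and brown fat, was dim throughout, with its highest values, 2.76 to 3.94, in the E18.5 controls.

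Markers of heart muscle also rose with stage. The summed level of the 20 cardiac markers on the array was 11.4 to 13.3 (log2) in E16.5 controls and 12.9 to 13.3 in E18.5 controls, highest at E16.5 in replicate 4, where Cox7a1 was highest too. Of the 15 cardiac markers tested, 14 rose with stage in controls, against 35.3% of all genes, while Nppa, Nppb, Nkx2-5, Pln and Myoz2 were dim in all 20 arrays. With the mean log2 value of the 15 cardiac markers tested as a covariate, the Cox7a1 difference was 0.05 (adjusted p = 0.874). That of Cox6b2 was 0.33 (adjusted p = 0.0716). Calls were also lost for Cox6a1, Ndufaf3, Atp5g2, Ndufa4, Cox5a, Ndufa2, Uqcrc1, Uqcrc2, Uqcrh and Cox4i1, while Ndufa6, Cox7a2l and Atp5g1 stayed called. For some of these the SE grew while the difference hardly moved. Uqcrc1 went from -0.25 (SE 0.08) to -0.25 (SE 0.13), and Cox5a from -0.23 (SE 0.07) to -0.22 (SE 0.12). Others shrank, such as Ndufa4 to -0.23 (SE 0.17) and Uqcrh to 0.07 (SE 0.09). The cardiac markers themselves rose with stage, so calls lost with this covariate do not show whether a change is separate from it. With this covariate 14 members were called in place of 41, and 47.6% of all genes in place of 70.9%. Lung markers changed with stage as well: 8 of 8 alveolar type I, 10 of 11 alveolar type II, 9 of 9 endothelial and 7 of 7 macrophage markers tested rose in controls, against 35.3% of all genes. The part of these lung cells in the members' values was not tested. In bulk tissue, fewer cells of a type and less RNA per cell cannot be told apart.

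In complex V, 9 of 17 genes fell and 0 rose (52.9% and 0%), against 35.5% and 35.3% of all genes tested. Of the 3 genes that encode the same mature c-ring protein, Atp5g1 fell most. It had log2 values of 11.06, 10.97, 11.05, 10.96 and 10.60 at E16.5 and of 9.78, 10.09, 10.56, 10.05 and 9.98 at E18.5, without overlap between the groups. The fall was 0.84 (SE 0.12, adjusted p = 6.63e-06). Atp5g2 fell by 0.34 (SE 0.12, adjusted p = 0.0159) and Atp5g3 was not called (-0.12, SE 0.06). Without replicate 3 of the E18.5 controls the Atp5g3 difference was -0.15 and was called (adjusted p = 0.0162). Of the F1 head, where ATP is formed, the catalytic Atp5b and the alpha subunit gene Atp5a1 fell, by 0.20 and 0.30, and 3 others were not called. The stalk genes Atp5o and Atp5j fell by 0.41 and 0.23, and of the membrane part Atp5k, Atp5mpl and Atp5j2 fell, by 0.52, 0.26 and 0.19.

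In mutants the same stages gave 25 called members, 17 lower and 8 higher (31.6%), against 56.2% of all genes tested (28.7% higher, 27.6% lower), with a median of -0.08. Ndufaf4 fell by 0.90 (SE 0.12), Ndufaf5 by 0.64 (SE 0.17) and Atp5g1 by 0.62 (SE 0.12), followed by Ndufab1, Cox6a1 and Ndufa12 (0.40, 0.39 and 0.38). Cox7a1 rose by 0.80 (SE 0.26, adjusted p = 0.0136), Ndufa6 and Cox7a2l by 0.59 each, Ndufaf3 by 0.47, Cox6b2 by 0.35 and the X-linked Ndufb11 by 0.20 (SE 0.06, adjusted p = 0.0127). Complex II had no called gene in mutants, and complex V had 3, all lower. By Xist, the sexes were not balanced between the stages in either genotype. With Xist as a covariate, 31 members were called in mutants (4 higher, 27 lower, 39.2%), against 54.8% of all genes, with a median of -0.14. In controls the same covariate gave 42 members (53.2%), against 70.6% of all genes, with a median of -0.10. With the mean log2 value of the 5 erythroid markers tested as a covariate, 26 members (32.9%) were called in controls and 7 (8.86%) in mutants. Of all genes, 57.3% and 19.5% were called. With the cardiac level 14 (17.7%) and 8 (10.1%) were called, against 47.6% and 32.8% of all genes. The markers of both lists themselves changed with stage, 14 of 15 cardiac and 5 of 5 erythroid in controls, and 9 and 3 in mutants. In mutants the summed level of all erythroid markers on the array did not overlap between the stages (12.73 to 13.87 at E16.5, 11.57 to 11.99 at E18.5). The covariate was the mean of the markers tested and not this sum, and its range is not given here. With the covariate the SE of Ndufaf5 in mutants grew from 0.17 to 0.30, so the covariate and stage can hardly be told apart there. Calls lost there with the erythroid level do not show whether a fall is separate from it. In mutants the Cox7a1 difference was -0.18 with the cardiac level as a covariate, and the call was lost with the erythroid level or Xist too. With the erythroid level, the falls in mutants lost their calls for Ndufaf5 (-0.11), Atp5g1 (-0.04), Ndufab1 (-0.22), Cox6a1 (-0.07), Ndufa12 (-0.03) and Ndufa5 (-0.14), with adjusted p from 0.299 to 0.921, while that of Ndufaf4 stayed called. Ndufab1 lost its call with the probe set of largest variance as well (-0.29, SE 0.31, adjusted p = 0.433). Ndufb11 lost its call with median centring or any of the 3 covariates (0.15 to 0.29).

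**Figure D2:**
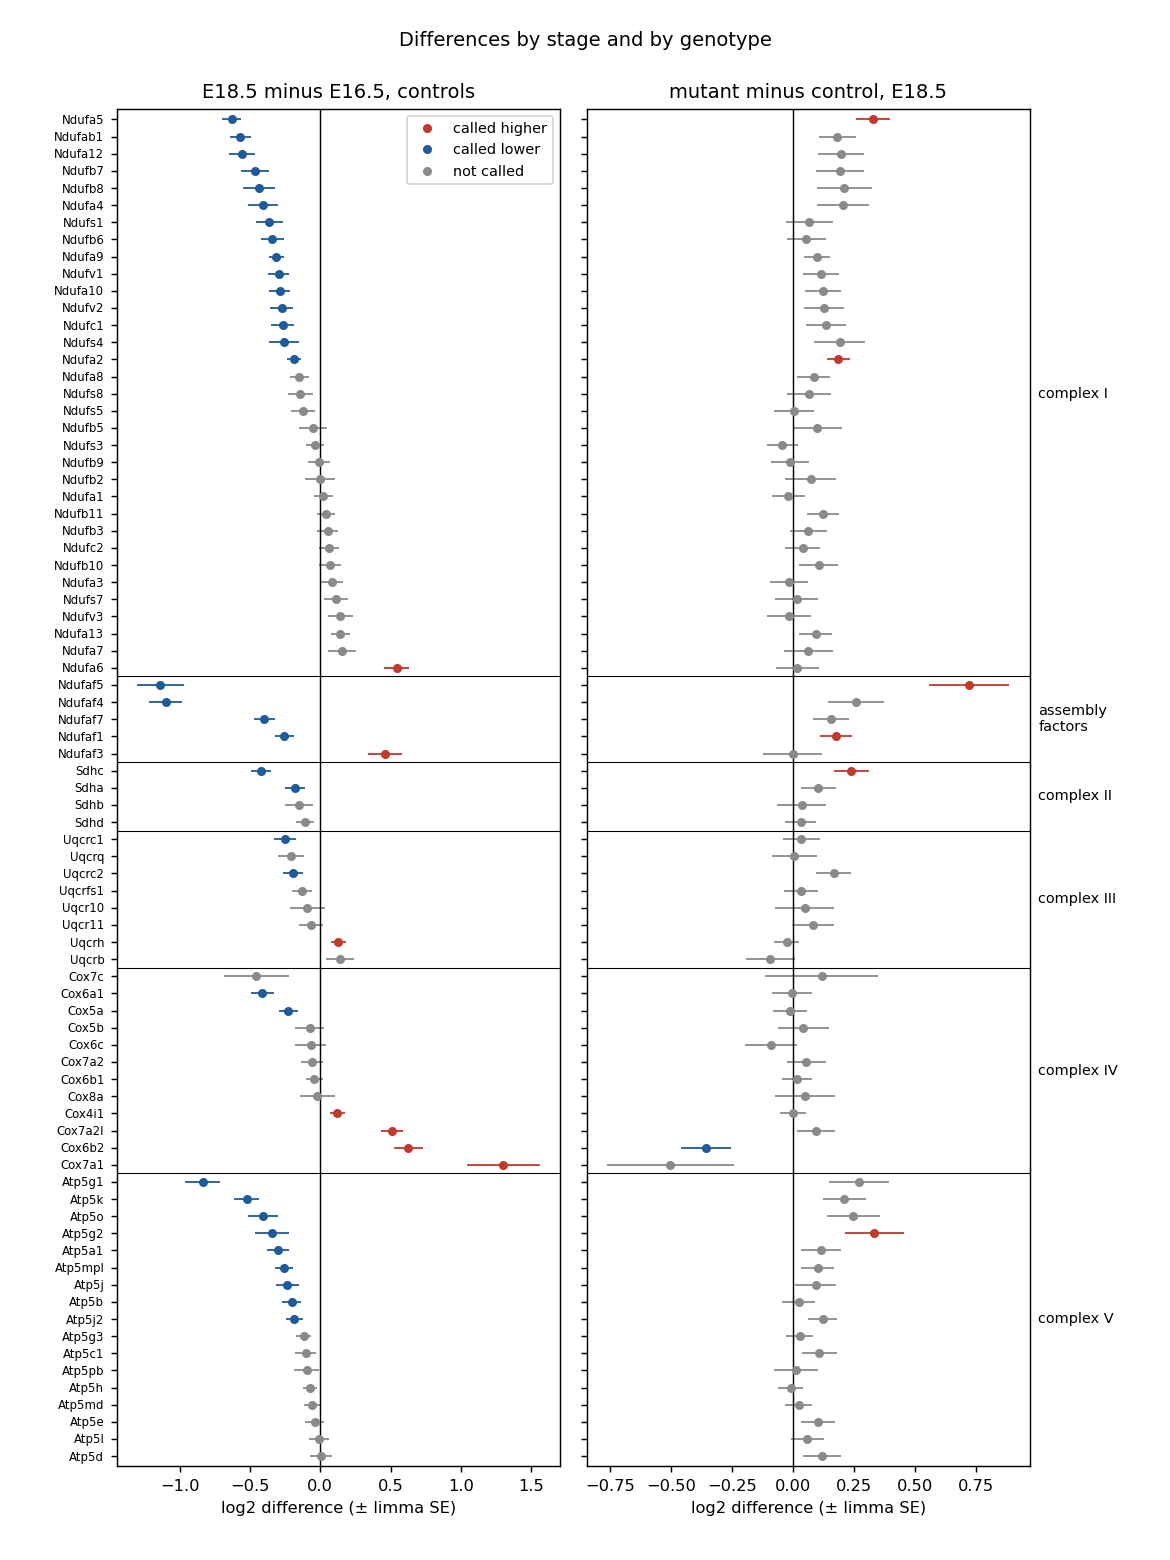
Log2 difference with its limma SE (horizontal bars) for each of the 79 members, E18.5 minus E16.5 in controls on the left and mutant minus control at E18.5 on the right, on different scales; red and blue mark members called higher and lower, grey those not called. On the left 34 are called lower and 7 higher, and on the right 6 are called higher and Cox6b2 lower.

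At E16.5, no member was called between mutants and controls. The count was 0 of 79, against 0.248% of all genes tested (0.0496% higher, 0.198% lower), and 0 had an unadjusted p under 0.05, against 4.41% of all genes. The differences ran from -0.22 (Cox7c, SE 0.23) to 0.23 (Ndufaf5, SE 0.17), with a median of 0.01. The 95% interval of the difference lay within 0.2 of 0 on the log2 scale for 43 members, within 0.3 for 72 and within 0.5 for 76, and was widest for Cox7c (-0.71 to 0.26). The largest differences elsewhere were 0.10 for Ndufv3 and 0.09 for Ndufs7 in complex I, -0.07 for Ndufaf7 among the assembly factors, 0.05 for Sdhb and -0.03 for Sdhc in complex II, 0.05 for Uqcrq and -0.03 for Uqcrc1 in complex III, -0.09 for Cox6c in complex IV, and 0.06 for Atp5g2 and 0.05 for Atp5g1 in complex V. All 5 E16.5 mutants and 1 of the 5 controls were female by Xist, so sex and genotype were nearly the same split at this stage. With Xist as a covariate 0 members were called, against 0.0992% of all genes. The median difference was then 0.09 over the members and 0.02 over all genes.

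At E18.5, mutants had higher levels of 6 members and a lower level of 1. The share called, 8.86% of the members, was below the 34.5% of all genes tested (18.6% higher, 15.9% lower), and the median difference was 0.07 over the members and 0.03 over all genes. Of the 79 differences 65 were above 0, against 4429 of the 8068 genes tested. The members' differences rest on the same animals and are not independent of each other. With Xist as a covariate 5 members (6.33%) were called, against 33.9% of all genes. The median was then 0.05 over the members and 0.03 over all genes, so with this covariate it was not larger than at E16.5. The 95% interval lay within 0.3 of 0 for 52 members. Groups did not overlap in 4 members, against 17.4% of all genes tested. Among genes with a mean above 10, 5.63% of the members and 36.8% of all were called.

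The complex I genes called were Ndufa5 and Ndufa2, both accessory subunits. Ndufa5 was at 11.69, 11.98, 11.83, 11.88 and 11.77 in E18.5 mutants. All 5 lay above the E18.5 controls (11.40 to 11.66) and below the E16.5 controls, and the difference of 0.33 (SE 0.07, adjusted p = 0.0014) corresponds to 1.26-fold. Ndufa2 was at 12.31, 12.39, 12.45, 12.32 and 12.33 in mutants and at 12.17, 12.17, 12.29, 12.11 and 12.12 in controls. These groups did not overlap either, with a difference of 0.19 (SE 0.05, adjusted p = 0.0063). Both calls held when any 1 of the 20 arrays was left out.

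Ndufaf5 had the largest difference of any member at E18.5. Its log2 values were 6.44, 7.02, 7.02, 6.56 and 7.00 in mutants against 5.89, 6.14, 6.71, 5.89 and 5.79 in controls. Only replicate 3 of the controls reached into the mutant range, and the difference was 0.72 (SE 0.17, adjusted p = 0.00266), or 1.65-fold. Without that control the Ndufaf5 difference was 0.88 (SE 0.14). Ndufaf1 was higher by 0.18 (SE 0.06, adjusted p = 0.0395), 7.63 to 7.76 in mutants and 7.39 to 7.59 in controls, but its call was lost without any 1 of 7 of the 10 E18.5 arrays. It was also lost with the probe set of largest variance, trend and robust variance, array weights, or Xist or the erythroid level as a covariate (adjusted p from 0.052 to 0.111). Ndufaf4 (0.26, SE 0.12) and Ndufaf7 (0.16, SE 0.07) were not called, and Ndufaf3 differed by less than 0.01.

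In complex II, Sdhc was at 10.89, 10.87, 10.86, 10.66 and 10.63 in mutants and at 10.51, 10.45, 10.61, 10.68 and 10.47 in controls. The groups overlapped in 1 control, replicate 4, and the difference was 0.24 (SE 0.07, adjusted p = 0.0152). In complex V, the c-ring gene Atp5g2 was at 12.51, 12.26, 12.11, 12.08 and 12.01 in mutants, and at 11.72, 11.79, 11.78 and 11.72 in 4 controls and 12.29 in replicate 3. The difference of 0.33 (SE 0.12, adjusted p = 0.0376) lost its call without any 1 of replicates 1, 2, 4 or 5 of the controls or replicates 1 or 2 of the mutants (0.26 to 0.32). It was also lost with the 2 groups alone, without the filter on dim genes, or with Xist or the cardiac level as a covariate (adjusted p from 0.0547 to 0.0781). Without replicate 3 of the controls the Atp5g2 difference was 0.44 (SE 0.10, adjusted p = 0.00266). Atp5g1 (0.27, SE 0.12, adjusted p = 0.0934) and Atp5g3 (0.03, SE 0.06) were not called.

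Cox6b2 was the 1 member lower in mutants at E18.5. Its values were 9.45, 9.27, 9.16, 9.12 and 9.25 in mutants and 9.50, 9.76, 9.66, 9.59 and 9.52 in controls. Every mutant lay below every control, by 0.35 on average (SE 0.10, adjusted p = 0.0123), and every mutant lay above the E16.5 control mean of 8.98. With the erythroid level as a covariate, the difference was -0.31 with an adjusted p of 0.0526. Cox7a1 also had a lower mean in mutants (5.14 ± 0.23 against 5.64 ± 0.28), but its difference of -0.50 (SE 0.26) was not called, and the cardiac markers were at 12.5 to 12.9 in mutants against 12.9 to 13.3. No gene of complex III was called; the largest differences there were 0.17 for Uqcrc2 and -0.09 for Uqcrb (SE 0.07 and 0.10).

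**Figure D3:**
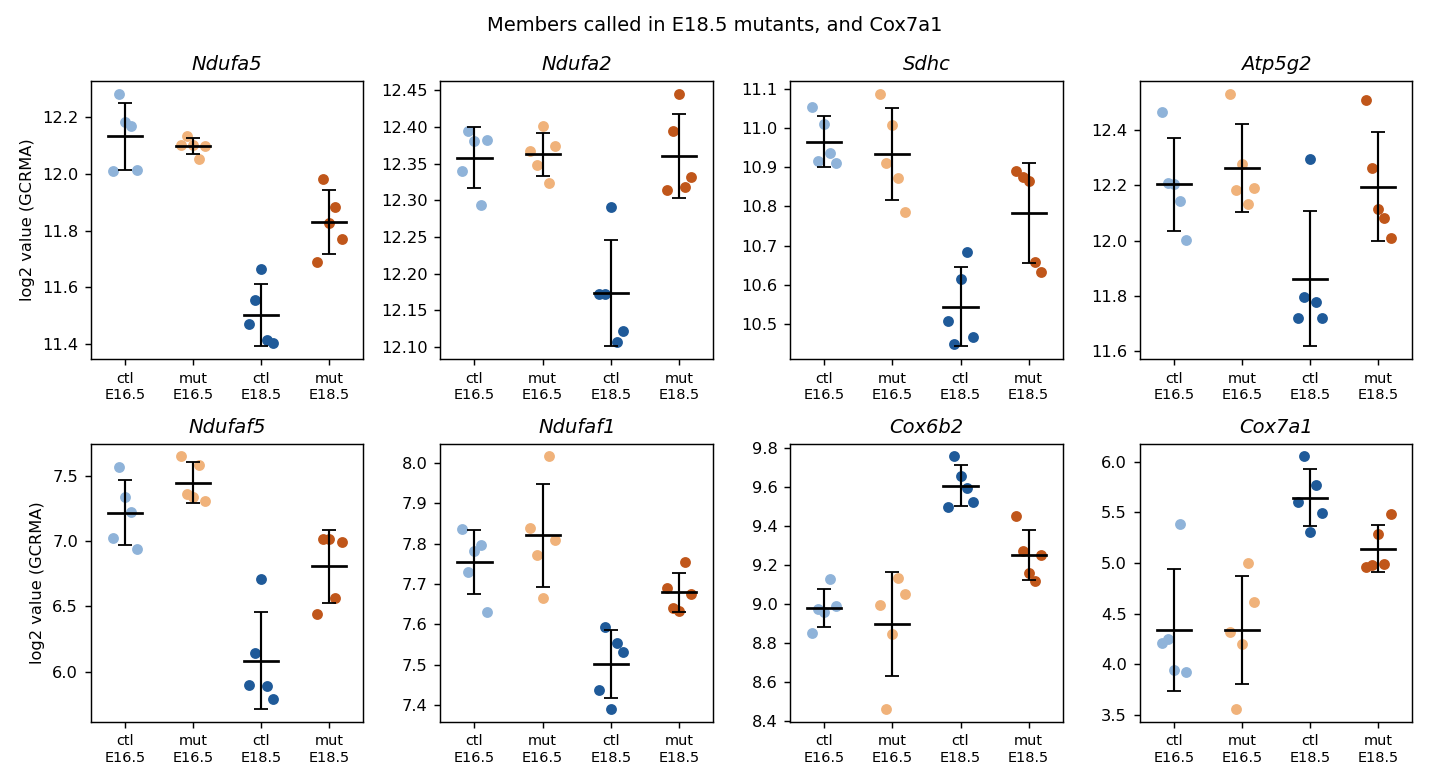
Log2 value of each animal (points), group mean (line) and SD (bars, n = 5) for the 7 members called between mutants and controls at E18.5 and for Cox7a1; ctl, control; mut, mutant; each panel has its own axis, which does not start at 0. The 5 mutants lie above the 5 controls at E18.5 for Ndufa5, Ndufa2 and Ndufaf1 and below them for Cox6b2, while 1 control reaches the mutant range for Ndufaf5, Sdhc and Atp5g2.

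The number of members called at E18.5 depended on replicate 3 of the controls. The mean of the 79 members, each centred on its own mean over all arrays, was 0.07 in this animal and -0.16 to -0.07 in the other E18.5 controls, and -0.09 to 0.07 in the E18.5 mutants. Without it, 17 members were called between mutants and controls (16 higher, 1 lower, 21.5%), against 41.4% of all genes, with a median of 0.12. The genes that then gained a call included Atp5g1 (0.39), Ndufa4 (0.29), Ndufa12 (0.27), Ndufab1 (0.22) and Uqcrc2 (0.21). The summed erythroid level was highest in this control and was 11.57 to 11.99 in the E18.5 mutants. With the erythroid covariate 21 members (26.6%) were called, against 44% of all genes. Of the 8 alveolar type I markers 7 were lower in E18.5 mutants (summed level 14.7 to 15.1 against 15.3 to 15.7), as were 5 of the 9 endothelial markers (12.9 to 13.2 against 13.4 to 13.6) and 15.9% of all genes tested. The part of these cells and of blood cells in the members' values was not tested.

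**Figure D4:**
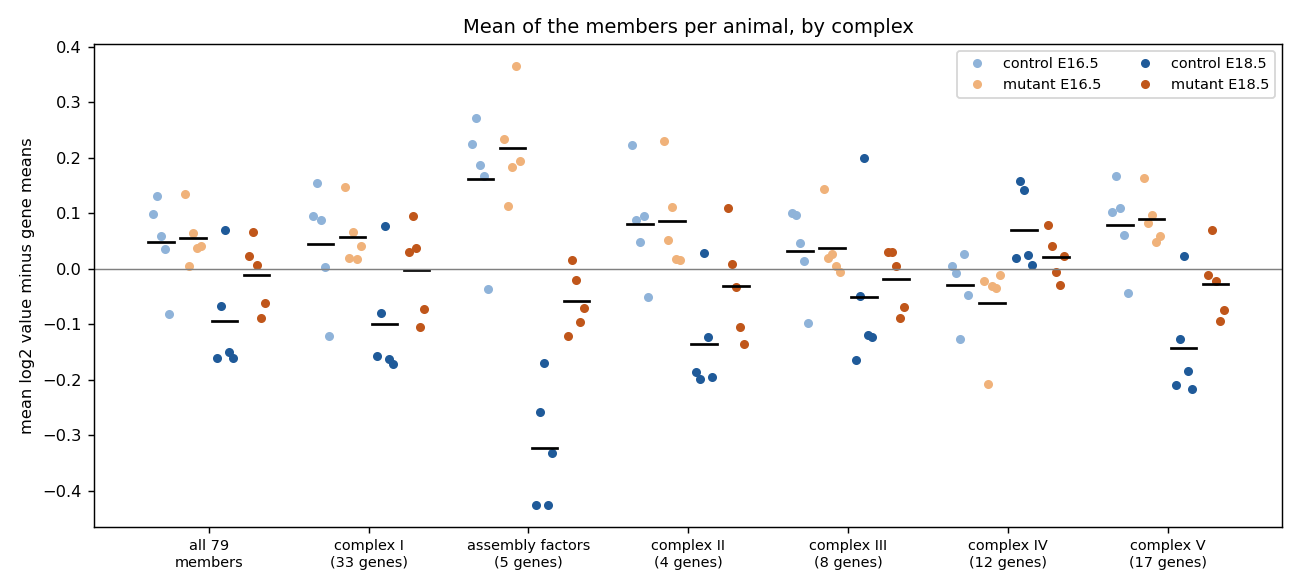
Mean over the members of log2 value minus the gene's mean over 20 arrays, for each animal (points) and group (line), over all 79 members and by complex. In complexes I, II and V 4 of the 5 E18.5 controls lie below -0.07 and replicate 3 lies above 0, and the assembly factors span the widest range. In complex IV the E18.5 groups lie above the E16.5 groups on average. Yet 8 of its 12 genes differed by less than 0 with stage in controls (median -0.05, highest 1.30 for Cox7a1) and 7 in mutants (median -0.02).

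The mutant effect differed between the stages in 1 member, Ndufa5, against 8.4% of all genes tested (3.62% with a more positive and 4.78% with a more negative effect at E18.5). The Ndufa5 effect was -0.03 at E16.5 and 0.33 at E18.5, a difference of 0.36 (SE 0.10, adjusted p = 0.0284). In other terms, Ndufa5 fell by 0.63 with stage in controls and by 0.27 in mutants. This call was lost when any 1 of 9 arrays was left out (0.32 to 0.36, adjusted p 0.0523 to 0.0647), and with Xist (0.33, adjusted p = 0.0896) or the cardiac level (0.35, adjusted p = 0.0507) as a covariate. Without replicate 3 of the E18.5 controls 3 members were called, against 17.7% of all genes: Ndufa5 (0.40), Ndufaf5 (0.65) and Ndufa2 (0.21). Over all members the median of the mutant effect at E18.5 minus that at E16.5 was 0.07 (0.02 over all genes). With Xist as a covariate it was -0.01 (0.01 over all genes). The stage comparison in controls and the mutant comparison at E18.5 share the E18.5 controls, so that a low value in these animals lowers one and raises the other; the values of both are given side by side here for that reason. Ndufaf5 stood at -1.14 with stage and 0.72 in mutants, Atp5g2 at -0.34 and 0.33, Sdhc at -0.42 and 0.24, Ndufa2 at -0.19 and 0.19, Ndufaf1 at -0.25 and 0.18, and Cox6b2 at 0.62 and -0.35.

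Other genes of mitochondrial metabolism were counted in the same tests. Of 74 genes for mitochondrial ribosomal proteins, which translate the subunits encoded in the mitochondrion, 17 were higher and 1 was lower in E18.5 mutants, led by Mrps25 (0.55, SE 0.10), Mrpl14 (-0.48, SE 0.09) and Mrps35 (0.46, SE 0.11), and 60 fell and 1 rose with stage in controls (82.4% called). Of 32 genes for protein import, carriers and the mitochondrial membrane, 11 were higher and 0 lower in mutants, led by the chaperonin Hspe1 (0.42, SE 0.08) and the translocase genes Timm8a1 and Timm17b (0.40 each), and 21 fell and 1 rose with stage (68.8%). With stage, 70.9% of all genes were called. The 24.3% and 34.4% called in these lists between genotypes compare with 34.5% of all genes, and the median differences of 0.16 and 0.14 with 0.03. Of the wider list of 33 assembly factors for complexes I to V, which includes the 5 above, 6 were higher and 1 was lower in mutants (21.2%). Besides Ndufaf5 these included Bcs1l, which inserts the iron-sulphur protein into complex III (0.51, SE 0.15), and Lrpprc, which stabilises mitochondrial messenger RNA (0.37, SE 0.13).

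Of 20 regulators of mitochondrial biogenesis, 4 were higher and 1 lower in E18.5 mutants (25.0%, against 34.5% of all genes, 18.6% higher and 15.9% lower). Tfam, which packages and transcribes mitochondrial DNA, was higher by 0.46 (SE 0.07, adjusted p = 0.000102), the coactivator gene Pprc1 by 0.34 (SE 0.10), and the DNA polymerase gene Polg was lower by 0.27 (SE 0.08). Of 16 genes for electron carriers and other chain proteins, 4 were higher and 1 lower (31.2%), led by Coq8a (-0.50), Dhodh (0.32) and Coq7 (0.29). Of 21 genes of the tricarboxylic acid cycle and pyruvate dehydrogenase, 1 was higher (Suclg2, 0.40) and 3 were lower (19.0%). Pdk4, the kinase that switches off pyruvate dehydrogenase, was lower by 3.17 (SE 0.20, adjusted p = 4.37e-09), and the cycle enzyme gene Ogdh by 0.28 (SE 0.09). Of 16 genes of fatty acid oxidation, 0 were higher and 3 lower (18.8%), namely Acaa2 (-0.41), Acadm (-0.38) and Echs1 (-0.27), and Acaa2 was also lower at E16.5 (-0.35, SE 0.07, adjusted p = 0.0174), where no other gene of these lists was called. Of 17 glycolytic genes, 6 were higher and 3 lower (52.9%), led by the muscle form Pgam2 (-2.47), the hexokinase gene Hk2 (-0.78) and Pgk1 (0.65).

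**Figure D5:**
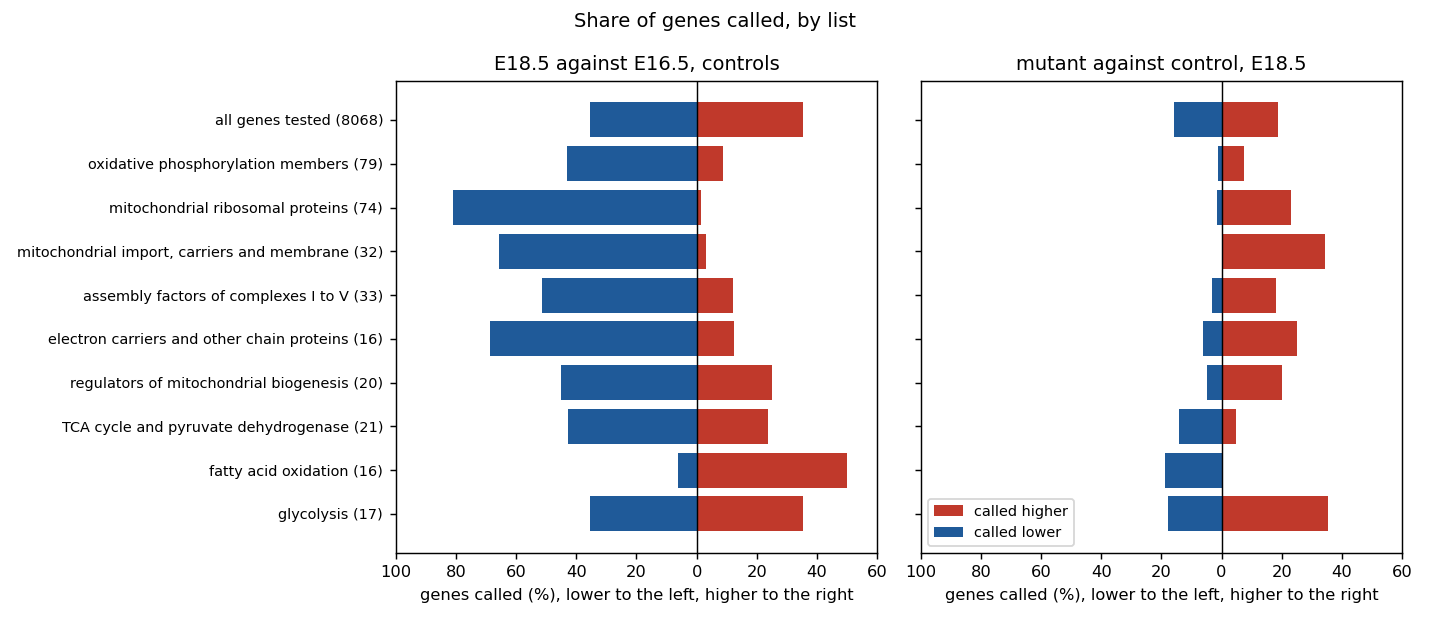
Percentage of the tested genes of each list (numbers in brackets) called higher (red, to the right) and lower (blue, to the left), for E18.5 against E16.5 in controls and for mutant against control at E18.5. The oxidative phosphorylation members have the lowest share called of the lists shown in both panels, 51.9% and 8.86%, and fatty acid oxidation is the list with 8 of 16 genes called higher with stage and 3 called lower in mutants.

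Other probe sets of the called members, where they passed the filter, had the same direction as the one used: 29 of 29 with stage in controls, 19 of 19 in mutants and 2 of 2 at E18.5 between genotypes. The probe sets used for Cox7a2l, Ndufa12 and Atp5k carry the suffix x_at, and those for Ndufa2 and Ndufab1 the suffix s_at, which the maker gives to sets whose probes can match more than 1 transcript.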

How the data were processed

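RNA of 20 left lung lobes was measured on Affymetrix Mouse430A_2 arrays. The authors deposited log2 expression values per probe set, made with GCRMA per the submitters' processing notes (version not given in the sources used here); GCRMA corrects background by probe sequence and normalizes by quantiles, which compresses low values and removes shifts shared by all genes. Of 22690 probe sets, 20380 name 1 gene, for 12393 genes, and the probe set of highest mean stood for each gene. The 8068 genes above a log2 value of 4 in at least 5 arrays were fitted together over 4 groups with limma 3.58.1 (R 4.3.3, lmFit and eBayes, two-sided), with Benjamini-Hochberg adjustment over all genes tested and a threshold of 0.05; no other covariate was used. Differences are log2 differences, and a fold is 2 to that power as the fit gives it. The fitting was tested on simulated data. Arrays are separate animals per the labels, and 5 per group limit the precision.

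Named genes were the 6 called members with the largest rise and fall in each comparison, the 2 largest differences of a complex with no called member, all subunits with several genes, X-linked members, and up to 3 called genes per other list. Further members of complexes II, III and V and of the core of complex I are named to account for these groups. The members, lists and rule were chosen with earlier results of these data known. Promoter windows come from RefSeq (GRCm38.p6). Alternatives covered probe set choice, filter, scaling, variance model, array weights, covariates, thresholds, a replicate block and leaving out each array. Where a marker level served as a covariate, it was the mean log2 value of the list's markers that passed the filter. The summed levels printed for a list take all its markers on the array. Cox7b and Ndufa4l2 were not analysed here.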

Additional observations from a re-analysis of the deposited data

Results flagged for a closer look

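In 16 of 176 groups of 5 animals examined, 1 animal lay far from the others; chance gives about 1 in 20 groups. Replicate 3 of the E18.5 controls was such a high value for Atp5g2 (12.29, others 11.72 to 11.79), Ndufa12 (12.03, others 11.66 to 11.71), Sdhb (11.59, others 11.14 to 11.19), Cox4i1 (13.88, others 13.68 to 13.71), Cox5b (13.33, others 12.86 to 12.95) and Cox7a2 (13.72, others 13.33 to 13.44).

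Among E16.5 controls, replicate 4 was high for Cox7a1 (5.38, others 3.92 to 4.25), replicate 1 was high for Cox5b (13.39, others 12.92 to 13.02), and replicate 5 was low for Ndufaf3 (8.03, others 8.33 to 8.41) and Atp5g1 (10.60, others 10.96 to 11.06). Among E16.5 mutants, replicate 1 was low for Cox5a (13.05, others 13.24 to 13.30) and high for Atp5g3 (13.72, others 13.52 to 13.56) and for the centred mean of complex III (0.14, others -0.01 to 0.03), and replicate 2 was low for the centred mean of complex IV (-0.21, others -0.04 to -0.01). Among E18.5 mutants, replicate 4 was low for Ndufa6 (10.75, others 11.04 to 11.14) and replicate 2 high for Ndufab1 (12.39, others 12.25 to 12.29).

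The mutant effect on Ndufa5 differed between the stages by 0.36 (SE 0.10, adjusted p = 0.0284, limma interaction term).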

How the results depend on the processing

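With 1 of the 20 arrays left out in turn, the members called numbered 0 to 0 at E16.5, 5 to 17 at E18.5, 37 to 47 with stage in controls, 20 to 28 in mutants and 0 to 3 for the interaction, and the members' share stayed below that of all genes tested in all 20 fits of each comparison. Over the 48 named differences that were called, leaving out an array kept the call 886 times and lost it 74 times, with 0 reversals; under the other alternatives these were 645, 103 and 2. Over the 137 not called, 30 calls were gained on leaving out an array and 59 under the other alternatives, where a further 58 values moved by more than 1 SD between replicates. Those that reversed were Uqcrc1 with stage in mutants under the erythroid covariate (0.17) and Cox7a1 in mutants under the cardiac covariate (-0.18). The summed erythroid level of the mutants did not overlap between the stages. With the erythroid covariate the SE of Ndufaf5 grew, so that fit hardly separates the covariate from stage. At E18.5, 12 members were called with the mean of probe sets, 25 with array weights, 21 with the erythroid covariate, 3 at an adjusted p under 0.01 and 4 at 1.2-fold or more. In the same order, the shares of all genes called were 35.5%, 46.3%, 44%, 20.4% and 29.9%. With stage in controls, 26 were called with the erythroid and 14 with the cardiac covariate, against 57.3% and 47.6% of all genes. In mutants these were 7 and 8, with 14 at an adjusted p under 0.01 and 16 at 1.2-fold or more. There the shares of all genes were 19.5%, 32.8%, 43.3% and 49.9%. For the interaction, 3 were called without a filter, 10 with array weights, 7 with the erythroid covariate, and 0 with the Xist covariate, with the cardiac covariate or at an adjusted p under 0.01. In this order, 4.42%, 27.8%, 24.6%, 5.89%, 5.49% and 2.06% of all genes were called. The stricter thresholds call fewer genes by construction; otherwise the cause was not tested. With genes of a mean above 10 alone, chosen after seeing the data, the counts were 0, 6, 37, 23 and 1. Of all genes in that fit, 0.485%, 40.5%, 72.8%, 60% and 9.39% were called. Without a filter on dim genes, 53.6% of the members and 48.1% of all genes were called with stage in controls.

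The replicate number as a block gave 0 members at E16.5, 10 at E18.5, 41 with stage in controls, 26 in mutants and 1 for the interaction. The shares of all genes were 0.211%, 36.5%, 71.8%, 57.5% and 9.09%. Animals of the same number did not deviate together throughout (r from -0.43 to 0.60). Between E16.5 controls and mutants r was 0.59, 0.17, -0.10, 0.33 and 0.60 for replicates 1 to 5. Whether the numbers pair animals at that stage cannot be decided from these values. GCRMA compresses low signals, which limits what can be said of the 5 dim members and of Cox7a1.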
